A study of Mus musculus with 15 samples.

Results

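Beta-actin knockout (KO) cells were compared with wild-type (WT) cells at day 4 of an osteogenic culture, across every gene with enough counts to test. The 6 libraries, 3 KO and 3 WT, were chosen by the genotype and day in their labels, out of 15 in the series, whose other 9 are WT, KO and heterozygous cells of day 14. All were mouse embryonic fibroblasts (MEFs) of strain BALB/c, labelled as from 10.5 day embryos. The KO cells lacked both copies of Actb (beta-actin-/-) and the WT cells carried both (beta-actin+/+). Both were grown to confluence on Matrigel, a basement membrane extract, in DMEM with serum. They were then moved at day 0 into OsteoMax-XF medium with dexamethasone and forskolin, each at a labelled 5 mM, so every library, WT included, had met the same medium and agents for the same time. The labels call the cells chemically reprogrammed osteoblasts. They give replicate numbers but not how many embryos, lines or cultures stand behind the 3 libraries of a genotype, so p-values measure only the spread between these libraries, and the Actb genotype and the origin of each MEF population cannot be told apart.

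Beta-actin and gamma-actin are the 2 cytoplasmic actins that nearly all mammalian cells make, and they build the filaments of the cell cortex, of stress fibres and of moving edges. Actin that is not in filaments binds the MRTF coactivators, which on release enter the nucleus and, with the transcription factor SRF, switch on genes of the cytoskeleton and of smooth muscle, actin genes among them. Actin is also a subunit of chromatin remodelling complexes. In osteoblast formation Runx2 and then Sp7 direct the genes of the bone matrix, dexamethasone acts through the glucocorticoid receptor, and forskolin raises cAMP.

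Total RNA was sequenced with an unstranded kit, so reads of a gene and of one overlapping it on the opposite strand cannot be told apart. Among genes with values below, such exons cover at least 10% of the exon length of Tagln, Ccn2, Fosl1, Sox4, Cebpd, Ccnd1, Cdkn1c, Hoxa11, Tapbp, Ruvbl2, Loxl3, Tmem47, Fam111a, Ctsl, Pcdh7 and Tbp. Reads counted in genes came to 32527638, 30742874 and 35735683 in the KO libraries, against 47486736, 41789888 and 25665666 in the WT libraries. Levels are CPM, counts scaled to a library total adjusted by TMM, with factors of 1.02 in KO and 0.921 to 0.925 in WT. Group values are means ± SD of n = 3 libraries, and differences are log2 values ± SE, KO minus WT. Libraries of 1 genotype were alike, with a variance between counts of 2.15 to 2.40 times random sampling in KO and 2.27 to 2.99 times in WT. Both genotypes carried the intermediate filament of fibroblasts, vimentin, with Vim at 622 ± 3.2 CPM in KO against 396 ± 5.0 CPM in WT. Some markers of osteoblasts past the earliest stage were scarcely present. Sp7 had 2 counts in all KO libraries together and 2 in all WT libraries. Bglap (osteocalcin) had 25 and 11, and Ibsp (bone sialoprotein) had none in any. The bone matrix genes Spp1 (osteopontin) and Sparc (osteonectin) were abundant in both genotypes, with values below. In bulk RNA, fewer cells of a type and less RNA per cell cannot be told apart.

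Most genes differed by genotype at day 4. Of 15296 genes tested, 5455 were higher in KO (35.7%) and 5175 lower (33.8%) at an adjusted p under 0.05, which is 69.5% of genes. The differences ran to large sizes: 2526 genes were called and at least 2-fold higher (16.5%) and 1815 at least 2-fold lower (11.9%), 28.4% in all, while 207 were at least 32-fold higher and 259 at least 32-fold lower. The median over all genes was 0.03, and the median size of a difference was 0.58 regardless of sign. The 3 KO and 3 WT values did not overlap for 12186 genes (79.7%). Every count of calls below is to be read against these shares, since most genes of any kind were called. Scaling by total counts in place of TMM shifted all differences by 0.14 and gave 6466 higher and 4184 lower, so 60.7% of calls were then higher, against 51.3% as reported.

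The balance of the RNA pool differed with the calls. Genes called higher in KO took 37.71% to 37.84% of counts in the KO libraries, against 20.82% to 20.95% in the WT libraries. Genes called lower took 37.99% to 38.11% in KO and 57.0% to 57.2% in WT.

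**Figure D1:**
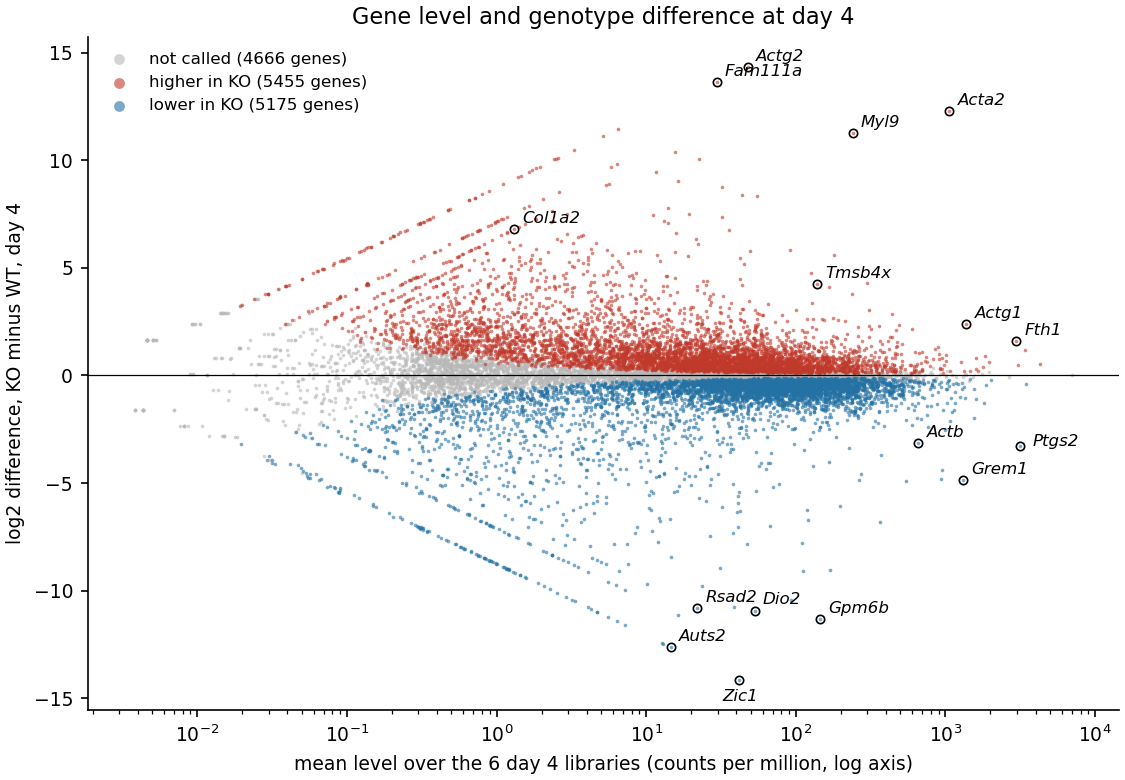
Each point is 1 of the 15296 tested genes, placed by its mean level over the 6 day 4 libraries (CPM, log axis) and by its log2 difference, KO minus WT, with 5455 genes called higher in red, 5175 called lower in blue and the rest in grey. Circled genes are named in the text: Acta2 and Myl9 lie at the top among abundant genes, Actb, Ptgs2 and Grem1 at the bottom, and the diagonal streaks at the left edge are genes with few or no counts in 1 genotype.

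The targeted gene was strongly reduced but still counted. Actb (chr5:142903115-142906754 of GRCm38, minus strand) had 129.9, 139 and 135 CPM in the KO libraries, against 1193, 1186 and 1164 CPM in the WT libraries. All KO libraries lay far below all WT libraries, a difference of -3.14 ± 0.05 with an adjusted p of 4.82e-16, and KO kept a level of 50.2 CPM per kb of exon against 441 in WT. A count per gene shows neither which exons the reads covered nor the allele, and Actb shares long stretches of near-identical sequence with Actg1, so reads could be split between them.

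Other actins were higher in KO. Actg1 (gamma-actin, chr11:120345690-120348542, minus strand) had 2290, 2333 and 2333 CPM in the KO libraries, against 448, 447 and 428 CPM in the WT libraries, a difference of 2.39 ± 0.10 (adjusted p = 1.12e-11). Acta2 (alpha smooth muscle actin, chr19:34241090-34255590, minus strand) had 2110, 2128 and 2112 CPM in the KO libraries, against 0.389, 0.338 and 0.590 CPM in the WT libraries, a difference of 12.29 ± 0.22 (adjusted p = 7.72e-19). It was thus among the most abundant genes of KO cells and close to absent in WT cells. Actg2 (gamma smooth muscle actin, chr6:83512905-83536265, minus strand) had 95.3, 98.4 and 91.9 CPM in the KO libraries and no count in any WT library, which makes it at least 3357-fold higher when the WT libraries together are set at a floor of 3 counts. Such bounds, and the counting intervals below for genes with 1 to 3 counts in a genotype, cover counting error only. Per kb of exon, KO cells held 964 CPM of Acta2, 872 of Actg1, 61.1 of Actg2 and 50.2 of Actb, against 0.200, 166, 0 and 441 in WT, so the leading actin was Acta2 in KO and Actb in WT. The 6 actin genes together took 0.471% to 0.478% of counts in KO and 0.147% to 0.151% in WT. Of the striated muscle actins, Acta1 had 11 counts in KO and 10 in WT, and Actc1 had none, both too few to test.

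**Figure D2:**
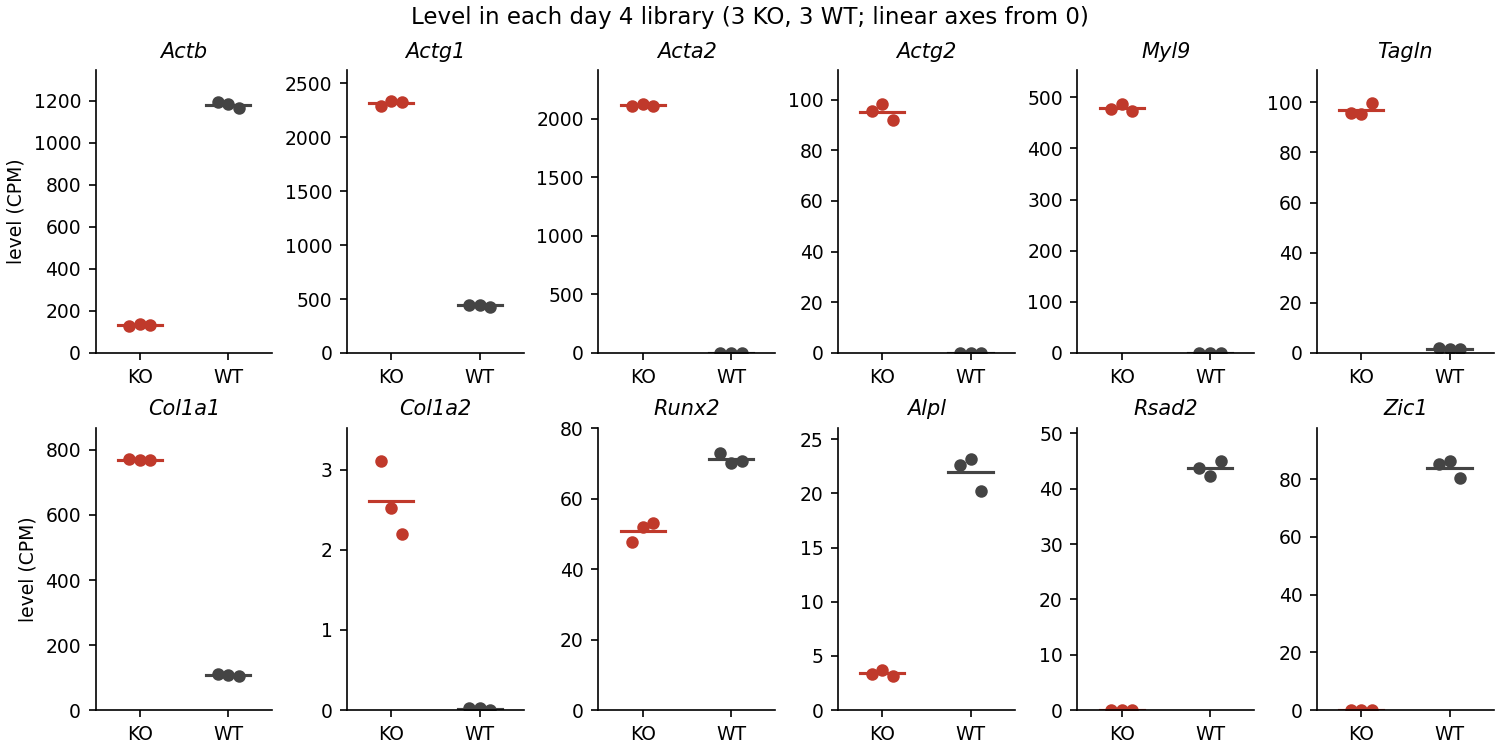
The level of 12 genes in each of the 3 KO libraries (left, red) and 3 WT libraries (right, grey), in CPM on linear axes from 0, with a line at the mean of a genotype. The values of KO and WT do not overlap in any panel, and Acta2, Actg2, Myl9, Rsad2 and Zic1 are at or near 0 in 1 genotype.

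Genes of the smooth muscle contractile apparatus rose with Acta2. Of 14 tested genes of that list, which leaves out the actins, 13 were higher and 1 lower, with a median of 2.37 against 0.03 over all genes. Myl9, the regulatory light chain of smooth muscle myosin, had 477, 488 and 473 CPM in the KO libraries, against 0.320, 0.130 and 0.0421 CPM in the WT libraries, a difference of 11.28 ± 0.34. Lmod1, leiomodin, which nucleates actin filaments in smooth muscle, had 3143 counts in KO and 2 in WT, a ratio of 1653 (95% counting interval 457 to 13653). Calponin, Cnn1, reached 109.9 ± 2.0 CPM in KO against 0.322 ± 0.20 CPM in WT, a difference of 8.32 ± 0.37. Tagln, the actin-binding protein transgelin, reached 96.8 ± 2.3 CPM in KO against 1.72 ± 0.10 CPM in WT, a difference of 5.80 ± 0.12. The kinase of myosin light chains, Mylk, was at 55.3 CPM in KO against 6.97 CPM in WT (2.97 ± 0.10). The muscle intermediate filament gene Des was at 5.08 CPM in KO against 0.532 CPM in WT (3.23 ± 0.21). In contrast Cald1, caldesmon, was slightly lower, at 771 CPM in KO against 903 CPM in WT (-0.23 ± 0.04), a call that was lost under total-count scaling, where it stood at -0.09 with an adjusted p of 0.0856. Defining genes of mature smooth muscle were not abundant: Myh11 had 16 counts in KO and 7 in WT, and the factor Myocd had 2 and 18. Striated muscle genes were near 0 in both genotypes. Of 6 tested, 3 were higher and 1 lower, all but Des under 1 CPM, and Myod1 had no count.

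Promoters of some of these genes were in the RefSeq table of GRCm38.p6, and those of genes the result turns on are shown with their CArG box, the sequence SRF binds, in capitals where both ends and all 6 inner bases matched on either strand. Each is the 250 bases before the RefSeq start, in the direction of the gene. Such a match occurred in 1.47% of all 32851 promoters of the table, or 1.62% of the 27025 genes with one. Among the actins and the smooth muscle list it occurred in 5 of the 17 genes with a promoter there. Of these, Actg1, Myl6 and Myl9 were higher in KO, and Acta1 and Actc1 were not tested. Of the 12 with a promoter and no match, 11 were likewise higher and 1 lower. The window of Acta2 held no full match, which says only that these letters are not there.
Myl9 promoter, chr2:156775214-156775463, plus strand: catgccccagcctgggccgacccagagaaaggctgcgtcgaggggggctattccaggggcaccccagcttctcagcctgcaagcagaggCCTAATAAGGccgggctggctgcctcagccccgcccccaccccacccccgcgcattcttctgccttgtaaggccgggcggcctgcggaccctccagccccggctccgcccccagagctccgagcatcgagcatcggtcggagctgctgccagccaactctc
Actg1 promoter, chr11:120348496-120348745, minus strand: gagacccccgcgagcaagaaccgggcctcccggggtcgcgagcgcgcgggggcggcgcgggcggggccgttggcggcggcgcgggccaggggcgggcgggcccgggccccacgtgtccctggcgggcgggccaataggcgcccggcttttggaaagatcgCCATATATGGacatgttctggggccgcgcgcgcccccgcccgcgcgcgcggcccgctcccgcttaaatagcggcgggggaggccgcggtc
Acta2 promoter, chr19:34255374-34255623, minus strand: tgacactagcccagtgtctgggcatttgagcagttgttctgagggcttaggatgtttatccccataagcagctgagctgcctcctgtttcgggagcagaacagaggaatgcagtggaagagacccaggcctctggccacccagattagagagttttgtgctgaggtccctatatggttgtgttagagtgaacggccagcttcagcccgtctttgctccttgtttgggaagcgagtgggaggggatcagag

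Genes of the SRF and MRTF list moved in both directions. Of 24 tested, 15 were higher and 7 lower, with a median of 0.66. Ccn2, a secreted matrix regulator, was at 20.5 CPM in KO against 1.98 CPM in WT (3.38 ± 0.14). Fhl1, a LIM protein of muscle, was at 118 CPM in KO against 11.9 CPM in WT (3.31 ± 0.08). Cnn2, a calponin of non-muscle cells, was at 306 CPM in KO against 47.9 CPM in WT (2.68 ± 0.07). The gene of SRF itself was higher, with 109.8 ± 2.6 CPM in KO against 63.4 ± 2.4 CPM in WT (0.79 ± 0.05, adjusted p = 5.72e-10). The 7 lower members were Egr1, Egr2, Fos, Fosb, Junb, Ier2 and Ccn1, known as genes that growth factors induce early, as is the higher Ccn2. Egr1 was at 29.1 ± 1.0 CPM in KO against 165 ± 5.3 CPM in WT (-2.51 ± 0.07). Fosb was at 0.845 CPM in KO against 9.11 CPM in WT (-3.43 ± 0.24). Ier2 was at 65.9 CPM in KO against 198 CPM in WT (-1.59 ± 0.11). Ccn1 was at 111 CPM in KO against 198 CPM in WT (-0.83 ± 0.05).

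Regulators of actin assembly moved in both directions. Of 31 tested, 17 were higher and 8 lower. The 3 with the largest increases follow. Tmsb4x (thymosin beta 4, which holds actin monomers) had 265, 259 and 269 CPM in the KO libraries, against 12.6, 14.2 and 14.7 CPM in the WT libraries, a difference of 4.26 ± 0.16. Gsn, the severing protein gelsolin, was at 546 ± 4.5 CPM in KO against 67.4 ± 2.0 CPM in WT (3.02 ± 0.06). Dstn, destrin, which depolymerizes filaments, was at 754 ± 7.9 CPM in KO against 175 ± 1.8 CPM in WT (2.11 ± 0.06). The Arp2/3 subunit Actr3 was at 469 CPM in KO against 256 CPM in WT (0.87 ± 0.04). The lower genes included formins, which elongate unbranched filaments, with Diaph1 at -0.53 ± 0.06, Diaph3 at -0.64 ± 0.10, Fmnl2 at -0.57 ± 0.10 and Daam1 at -0.80 ± 0.15.

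Crosslinkers and adhesion linkers were mostly higher, 16 of 23, with 3 lower and a median of 0.44. Fscn1, the filament bundler fascin, was at 366 ± 6.4 CPM in KO against 62.9 ± 1.6 CPM in WT (2.54 ± 0.04). It also lies next to Actb on chromosome 5. Flna, filamin A, was at 2040 ± 15 CPM in KO against 1148 ± 12 CPM in WT (0.83 ± 0.12), Actn1, alpha-actinin, at 1.29 ± 0.08 and Pls3, plastin, at 0.96 ± 0.04. Ezr, ezrin, which ties filaments to the membrane, was lower at 114 ± 2.2 CPM in KO against 346 ± 7.8 CPM in WT (-1.60 ± 0.05).

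The other filament systems also differed. Of 15 tubulin genes 10 were higher and 3 lower, with a median of 0.55. Tuba1a was at 398 CPM in KO against 177 CPM in WT (1.17 ± 0.07). Tuba1c was at 312 CPM in KO against 412 CPM in WT (-0.40 ± 0.08). Among 13 intermediate filament genes 9 were higher and 2 lower, and keratins led: Krt17 had 1174 counts in KO and 1 in WT, a ratio of 1235 (95% counting interval 221 to 48809). Krt19 was at 5.34 CPM in KO against 0.0811 CPM in WT. Krt18 was at 4.04 CPM in KO against 0.129 CPM in WT. Vim was higher by 0.65 ± 0.06. The lamin gene Lmnb2 was lower, at 68.7 CPM in KO against 84.6 CPM in WT (-0.30 ± 0.05). The list of 15 epithelial markers, which holds 5 keratins, summed to 12.01 to 12.93 CPM in KO and 3.75 to 4.36 CPM in WT. Its 10 genes other than keratins summed to 2.66 to 3.30 CPM in KO and 3.66 to 4.08 CPM in WT, and of the 6 of them tested 1 was higher and 3 lower. Trp63, a factor of basal epithelium, had 64 counts in KO and 0 in WT, the tight junction gene Cldn3 had 0 in KO and 165 in WT, and the E-cadherin gene Cdh1 had 7 in KO and 2 in WT. Their part in the keratin result was not tested.

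Genes typical of fibroblasts were divided. Of 15 tested, 6 were higher and 6 lower in KO. Ly6a (Sca-1), a surface marker of mesenchymal progenitors, had 352, 350.1 and 354 CPM in the KO libraries, against 6.84, 6.39 and 8.47 CPM in the WT libraries, and S100a4 was at 15.6 ± 0.50 CPM in KO against 1.52 ± 0.036 CPM in WT. Prrx1, a factor of limb and skull mesenchyme, was at 71.2 ± 3.0 CPM in KO against 269.9 ± 2.4 CPM in WT. The adhesion molecule Vcam1 was at 16.1 CPM in KO against 66.3 CPM in WT. The surface marker Thy1 had 16 counts in KO and none in WT. Of markers of other lineages, 15 endothelial genes summed to 2.17 to 2.78 CPM in KO and 27.2 to 30.5 CPM in WT, where Flt1 and Kdr made up most. Of 7 of them tested, 4 were lower and 1 higher. The junction gene Cdh5 had 5 counts in KO and 360 in WT (-5.93 ± 0.75). The endothelial factor Erg and the junction gene Cldn5 were at 0 in all 6 libraries. The 16 macrophage and blood genes summed to 103.9 to 105.6 CPM in KO and 86.3 to 90.3 CPM in WT, and of 5 tested 2 were higher and none lower by edgeR, at an unadjusted p under 0.05 (0 genes) or by DESeq2 (0 genes). Most of that sum was Cd14, at 79.6 CPM in KO against 78.4 CPM in WT (0.02 ± 0.08, not called). Cd74 was at 18.5 CPM in KO against 6.28 CPM in WT (1.56 ± 0.11) and Cd68 at 5.41 CPM in KO against 2.91 CPM in WT (0.89 ± 0.11). The leukocyte gene Ptprc and the macrophage genes Adgre1 and Tyrobp were at 0 in all 6. The part of such cells in the other differences was not tested.

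Transcription factors of the osteoblast line were mostly lower. Of 14 tested, 10 were lower and 3 higher, with a median of -0.78. Runx2, which starts osteoblast formation, had 47.6, 51.8 and 53.1 CPM in the KO libraries, against 73.0, 70.1 and 70.6 CPM in the WT libraries, without overlap, a difference of -0.49 ± 0.07 (adjusted p = 2.34e-05). Falls were larger in the genes that follow. Fosl1, a subunit of AP-1, was at 67.5 ± 1.5 CPM in KO against 312 ± 13 CPM in WT (-2.21 ± 0.06). Sox4 was at 56.1 CPM in KO against 147 CPM in WT (-1.39 ± 0.07). The homeobox gene Msx1 had 3 counts in KO and 699 in WT, and Dlx3 had 1 in KO and 740 in WT. Msx2 went the other way, at 14.8 ± 1.3 CPM in KO against 0.566 ± 0.20 CPM in WT (4.62 ± 0.25). Dlx6 was likewise higher, at 1.41 CPM in KO against 0.0811 CPM in WT (4.29 ± 0.61).

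Genes of matrix mineralization split, with 8 higher and 6 lower of 14 tested. Alpl, the tissue-nonspecific alkaline phosphatase, had 3.35, 3.71 and 3.11 CPM in the KO libraries, against 22.7, 23.1 and 20.2 CPM in the WT libraries, a difference of -2.70 ± 0.09 (adjusted p = 3.49e-13). All KO values lay far below all WT values. Bmp2, the bone morphogenetic protein, had no count in KO and 714 in WT, which makes it at least 226-fold lower. Tnfsf11 (RANKL), the signal that makes osteoclasts, was at 0.397 ± 0.20 CPM in KO against 224 ± 0.84 CPM in WT (-9.09 ± 0.26). Spp1, osteopontin, among the most abundant genes of the cells, was higher at 5068 ± 39.8 CPM in KO against 3529 ± 16 CPM in WT (0.52 ± 0.09), and Sparc (osteonectin) rose slightly to 1562 ± 27 CPM in KO against 1356 ± 46 CPM in WT (0.20 ± 0.05). Ogn, the leucine-rich proteoglycan osteoglycin, was at 26.3 ± 1.4 CPM in KO against 0.170 ± 0.053 CPM in WT (7.16 ± 0.34). Phex, a phosphate-regulating peptidase of bone cells, was at 11.4 CPM in KO against 1.01 CPM in WT (3.52 ± 0.22). Ank, which exports pyrophosphate, was at 191 CPM in KO against 46.3 CPM in WT (2.04 ± 0.06).

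Neither cartilage nor fat genes moved as a set. Of 8 chondrocyte genes tested, 3 were higher and 3 lower: Sox9, the cartilage factor, was at 21.5 ± 0.71 CPM in KO against 6.17 ± 1.3 CPM in WT (1.78 ± 0.11), and Col11a1 had 2 counts in KO and 1131 in WT. Of 15 adipocyte genes 5 were higher and 7 lower. Plin4, a lipid droplet coat protein, was at 87.3 ± 1.6 CPM in KO against 0.276 ± 0.12 CPM in WT (8.39 ± 0.37). The lipase Lpl was at 28.2 CPM in KO against 2.62 CPM in WT (3.36 ± 0.17). Fabp4, a fatty acid carrier, was at 77.7 ± 2.4 CPM in KO against 16.1 ± 1.0 CPM in WT (2.28 ± 0.14). The fat cell factor Pparg was at 5.42 CPM in KO against 1.45 CPM in WT (1.92 ± 0.24). The factors Cebpa and Cebpd were lower, Cebpa at 0.405 CPM in KO against 6.95 CPM in WT (-4.11 ± 0.39). Cebpd was at 119 CPM in KO against 294 CPM in WT (-1.31 ± 0.13), and Adipoq, the secreted marker of mature fat cells, had no count.

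Collagen genes were mostly higher. Of 20 tested, 12 were higher and 4 lower, with a median of 1.48. Col1a1, which encodes the main chain of type I collagen, had 771, 769.9 and 768 CPM in the KO libraries, against 110.3, 107 and 104 CPM in the WT libraries, a difference of 2.84 ± 0.06 (adjusted p = 6.14e-15). Its partner chain Col1a2 was scarce in both genotypes, with 3.11, 2.53 and 2.20 CPM in the KO libraries, against 0.0229, 0.0260 and 0 CPM in the WT libraries. The WT libraries held 2 counts in all, against 262 in KO, a ratio of 138 (95% counting interval 37.8 to 1144). Col6a3 and Col6a2, chains of the microfibrillar type VI collagen, were at 64.2 ± 1.2 CPM in KO against 0.145 ± 0.021 CPM in WT (8.78 ± 0.48) and 106 CPM in KO against 14.9 CPM in WT (2.83 ± 0.07). The fibril collagens Col5a3 and Col5a2 were lower, at 3.75 ± 0.79 CPM in KO against 136 ± 2.1 CPM in WT (-5.19 ± 0.11) and 169.9 CPM in KO against 548 CPM in WT (-1.69 ± 0.05), as was Col12a1, a collagen on the surface of fibrils, at 267 CPM in KO against 1102 CPM in WT (-2.04 ± 0.20).

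Among 26 matrix glycoproteins and collagen-modifying enzymes, 11 were higher and 13 lower. Higher members included lysyl oxidases, which crosslink collagen, with Lox at 237 CPM in KO against 80.9 CPM in WT (1.55 ± 0.07), Loxl1 at 1.64 ± 0.07 and Loxl3 at 2.02 ± 0.08, and fibronectin, Fn1, was at 2411 ± 7.6 CPM in KO against 1285 ± 12 CPM in WT (0.91 ± 0.19). Lower members included proteoglycans and matricellular proteins. Tnc (tenascin C) was at 86.9 ± 2.1 CPM in KO against 1822 ± 13 CPM in WT (-4.39 ± 0.15). Vcan (versican) was at 631 ± 13 CPM in KO against 2488 ± 27 CPM in WT (-1.98 ± 0.17). Thbs2 (thrombospondin 2) was at 6.32 ± 0.72 CPM in KO against 720.4 ± 6.5 CPM in WT (-6.83 ± 0.11). Dcn (decorin) was at 22.02 ± 1.04 CPM in KO against 527 ± 7.0 CPM in WT (-4.58 ± 0.07). Bgn (biglycan) was at 18.6 CPM in KO against 207 CPM in WT (-3.48 ± 0.09). Of 25 integrins and basement membrane genes 10 were higher and 11 lower. Itga8 differed by 5.15 ± 0.54 on the log2 scale. Itga3 was at 262 CPM in KO against 83.7 CPM in WT (1.64 ± 0.07). Lamb1 was at 172 CPM in KO against 547 CPM in WT (-1.67 ± 0.06). Lama4 was at 6.08 CPM in KO against 55.5 CPM in WT (-3.19 ± 0.14) and Lama1 had no count in KO and 245 in WT.

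Matrix proteases and their inhibitors were lower for 13 of 24 genes and higher for 10, with a median of -1.01. The collagenase Mmp13 was at 5.81 ± 0.52 CPM in KO against 389.7 ± 8.9 CPM in WT (-6.07 ± 0.07). Stromelysin Mmp3 was at 17.7 ± 0.89 CPM in KO against 512 ± 6.9 CPM in WT (-4.85 ± 0.10). Gelatinase Mmp2 was at 289.6 ± 2.6 CPM in KO against 1698 ± 15 CPM in WT (-2.55 ± 0.05). The aggrecanase Adamts1 was at 52.7 ± 1.5 CPM in KO against 692 ± 9.4 CPM in WT (-3.71 ± 0.07). On the higher side were Adamts5 (2.05 ± 0.07), the procollagen peptidase Adamts2 (2.73 ± 0.11) and Mmp11 (1.16 ± 0.07). The inhibitor Timp2 was at 638 CPM in KO against 316 CPM in WT (1.01 ± 0.05).

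Interferon-response genes had the lowest median of the 59 lists described. These genes encode antiviral proteins, and cells hold some of them at a basal level without infection. Of 33 tested, 26 were lower and 6 higher, with a median of -3.10 against 0.03 over all genes. Rsad2 (viperin, an antiviral enzyme) had 0, 0.0320 and 0.0275 CPM in the KO libraries, against 43.8, 42.3 and 45.0 CPM in the WT libraries. That is 2 counts in KO and 4610 in WT, a ratio of WT to KO of 2192 (95% counting interval 606 to 18103). Ifit1, which binds viral RNA caps, had 0.966, 0.767 and 1.16 CPM in the KO libraries, against 83.4, 80.8 and 75.9 CPM in the WT libraries, a difference of -6.36 ± 0.16. The chemokine Cxcl10 was at 1.67 ± 0.48 CPM in KO against 80.1 ± 2.3 CPM in WT (-5.59 ± 0.16). Oasl2, of the oligoadenylate synthetase family, was at 0.171 ± 0.074 CPM in KO against 10.6 ± 0.60 CPM in WT (-5.93 ± 0.36). The values of these genes did not overlap between genotypes. In contrast Stat2, part of the factor that carries the interferon signal, was higher at 142 ± 2.3 CPM in KO against 76.9 ± 2.4 CPM in WT (0.88 ± 0.06), with Ifit2 at 0.61 ± 0.08 and Ifitm2 at 0.38 ± 0.06. Several members have near-identical family copies, Ifit1 and Ifitm2 among them, between which reads may have been split.

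Interferon-induced GTPases were lower too: of 15 tested 11 were lower and none higher, with a median of -1.75. No member was higher at an unadjusted p under 0.05 in edgeR either (0 genes), and DESeq2 called 0. Gbp3 was at 0.539 CPM in KO against 8.27 CPM in WT (-3.94 ± 0.20). Gbp7 was at 0.191 CPM in KO against 6.90 CPM in WT (-5.15 ± 0.34). Irgm2 was at 1.91 CPM in KO against 9.29 CPM in WT (-2.28 ± 0.13).

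At day 14 the same lists stood the other way. Of all genes, 4727 were higher (30.9%) and 4926 lower (32.2%) in KO at day 14, 63.1% in all. Of the 33 interferon genes 21 were then higher and 5 lower, with a median of 0.63, and 17 were called in opposite directions at the 2 days. Opposite calls were common among all genes too, with 3319 of the 15296 tested and of the 7112 called at both days. The difference between days was called for 30 of the 33, against 64.7% of all genes. For Rsad2 the genotype difference was 2.67 ± 0.09 at day 14 (difference between days, day 4 minus day 14, -13.47 ± 1.03), and for Ifit1 it was 1.05 ± 0.08 (-7.41 ± 0.18).

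The promoters of Rsad2, Ifit1 and Isg15, an interferon-induced ubiquitin-like protein, are shown because these genes hold the pattern GAAA, NN and GAAA in 1 run, the core of the element that interferon-activated factors bind, on either strand, in capitals. Matches in Isg15 overlap one another. The pattern occurred in 2.98% of all 32851 promoters, or 3.46% of the 27025 genes with one. It occurred in 11 of the 24 interferon-response genes with a promoter in the table. Of those 11 genes 9 were lower in KO at day 4, and Stat2 and Ifitm2 were higher. Of the 13 with a promoter and no match, 10 were likewise lower and 3 higher. It is a description of the letters and not of binding.
Rsad2 promoter, chr12:26456453-26456702, minus strand: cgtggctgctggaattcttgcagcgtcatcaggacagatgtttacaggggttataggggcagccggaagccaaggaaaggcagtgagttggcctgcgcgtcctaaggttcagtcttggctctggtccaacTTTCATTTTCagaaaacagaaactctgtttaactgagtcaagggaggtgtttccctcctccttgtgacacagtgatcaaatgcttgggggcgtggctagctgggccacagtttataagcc
Ifit1 promoter, chr19:34640639-34640888, plus strand: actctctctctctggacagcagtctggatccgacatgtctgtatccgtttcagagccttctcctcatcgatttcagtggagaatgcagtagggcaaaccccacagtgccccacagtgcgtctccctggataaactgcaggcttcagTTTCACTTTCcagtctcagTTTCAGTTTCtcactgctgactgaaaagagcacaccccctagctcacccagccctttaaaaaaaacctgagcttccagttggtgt
Isg15 promoter, chr4:156200819-156201068, minus strand: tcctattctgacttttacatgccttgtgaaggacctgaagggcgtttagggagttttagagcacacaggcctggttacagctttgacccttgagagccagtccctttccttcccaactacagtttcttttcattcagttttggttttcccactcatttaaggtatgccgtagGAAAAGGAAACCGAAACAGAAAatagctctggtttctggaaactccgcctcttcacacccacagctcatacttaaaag

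Antigen presentation genes showed no common direction, with 6 higher and 7 lower of 15. H2-D1 was at 341 CPM in KO against 641 CPM in WT (-0.91 ± 0.07). H2-Q7 was at 6.85 CPM in KO against 62.2 CPM in WT (-3.18 ± 0.09), and reads of both may be shared with close relatives. The peptide-loading gene Tapbp differed by 0.72 ± 0.06. Of 33 chemokines and cytokines 14 were higher and 17 lower. Il1rl1, the receptor of interleukin 33, was at 35.0 ± 0.60 CPM in KO against 1061 ± 21 CPM in WT (-4.92 ± 0.07). Il11 was at 0.991 ± 0.055 CPM in KO against 218 ± 4.9 CPM in WT (-7.77 ± 0.19). Ccl5 was at 2.52 CPM in KO against 48.5 CPM in WT (-4.27 ± 0.16). Csf1, the growth factor of macrophages, was higher at 327 ± 3.1 CPM in KO against 54.9 ± 1.5 CPM in WT (2.58 ± 0.06), as was Cxcl12 at 92.7 CPM in KO against 24.7 CPM in WT (1.91 ± 0.06). The acute phase gene Lcn2 was at 516 CPM in KO against 105 CPM in WT (2.29 ± 0.08). Complement C3 was at 894 CPM in KO against 431 CPM in WT (1.05 ± 0.11). Serum amyloid Saa3 was at 382 CPM in KO against 929.9 CPM in WT (-1.28 ± 0.14).

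Genes that respond to the agents in the medium were counted too. Of 18 cAMP-response genes, 12 were lower and 5 higher, with a median of -1.59. Nr4a1, an orphan nuclear receptor induced by cAMP, was at 13.4 ± 0.64 CPM in KO against 247 ± 17 CPM in WT (-4.21 ± 0.07). The phosphodiesterase Pde4b was at 35.6 ± 1.4 CPM in KO against 223 ± 4.9 CPM in WT (-2.65 ± 0.07). The growth factor Areg was at 1.63 CPM in KO against 40.9 CPM in WT (-4.65 ± 0.16). Dio2, the deiodinase that activates thyroid hormone, was at 0.0497 ± 0.017 CPM in KO against 106 ± 0.73 CPM in WT (-10.93 ± 0.75). Prkar2b, a regulatory subunit of protein kinase A, was higher at 135 CPM in KO against 36.4 CPM in WT (1.89 ± 0.09). Ppargc1a was at 28.4 CPM in KO against 10.1 CPM in WT. Of 21 glucocorticoid-response genes, 11 were lower and 5 higher. The classical targets split. Tsc22d3 was at 150.2 ± 3.0 CPM in KO against 55.2 ± 2.4 CPM in WT (1.44 ± 0.08). Fkbp5 was at 152 CPM in KO against 93.1 CPM in WT (0.70 ± 0.05). Klf9 was at 80.4 CPM in KO against 215 CPM in WT (-1.42 ± 0.05). Klf15 was at 1.09 CPM in KO against 25.4 CPM in WT (-4.52 ± 0.15).

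The largest single loss of reads was in Ptgs2, the inducible cyclooxygenase that starts prostaglandin synthesis. It had 595, 598 and 607 CPM in the KO libraries, against 5645, 5678 and 5898 CPM in the WT libraries, a difference of -3.26 ± 0.04. The KO and WT values did not overlap. Ptges, the synthase of prostaglandin E, was at 5.55 ± 0.47 CPM in KO against 41.0 ± 0.83 CPM in WT (-2.88 ± 0.08). Ptgs1, the constitutive cyclooxygenase, was higher at 126 CPM in KO against 63.6 CPM in WT (0.98 ± 0.07), as was Ptgis, prostacyclin synthase (2.66 ± 0.19). Of 13 genes of the pathway tested, 7 were higher and 6 lower.

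Growth factor genes were largely lower. Of 34 genes of FGF, EGF, IGF, PDGF and VEGF signalling, 24 were lower and 10 higher, with a median of -1.18. Fgf7 was at 2.23 ± 0.38 CPM in KO against 239 ± 3.0 CPM in WT (-6.74 ± 0.14). Igfbp5, which binds IGF, was at 0.637 ± 0.19 CPM in KO against 337 ± 7.2 CPM in WT (-9.02 ± 0.25). Vegfa was at 219 CPM in KO against 593 CPM in WT (-1.44 ± 0.05). The feedback inhibitors Spry2 and Dusp6 were at 4.54 CPM in KO against 149.6 CPM in WT (-5.04 ± 0.09) and 46.8 CPM in KO against 157 CPM in WT (-1.74 ± 0.05). Vegfd was higher at 49.96 CPM in KO against 3.84 CPM in WT (3.68 ± 0.09). Pdgfb was at 6.24 CPM in KO against 0.174 CPM in WT (5.09 ± 0.49).

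In BMP and TGF-beta signalling 16 of 32 genes were lower and 11 higher. Grem1, a secreted antagonist of BMPs, had 89.0, 85.7 and 89.7 CPM in the KO libraries, against 2522, 2516 and 2563 CPM in the WT libraries, a difference of -4.85 ± 0.05. Fst, follistatin, was at 10.4 CPM in KO against 78.3 CPM in WT (-2.91 ± 0.06). The activin subunit Inhba was at 7.62 CPM in KO against 126 CPM in WT (-4.05 ± 0.09). The BMP target genes Id2 and Id3 were higher, at 8.79 CPM in KO against 1.60 CPM in WT (2.49 ± 0.23) and 59.6 CPM in KO against 12.6 CPM in WT (2.24 ± 0.11), as was Smad9 (4.68 ± 0.30). Of 35 Wnt genes 14 were lower and 11 higher. The receptors Fzd1 and Ror2 were at 56.5 CPM in KO against 172 CPM in WT (-1.61 ± 0.06) and 4.39 CPM in KO against 57.9 CPM in WT (-3.72 ± 0.11). The antagonist Sfrp1 was at 1.15 CPM in KO against 38.7 CPM in WT (-5.07 ± 0.15). On the other side Fzd2 was at 29.5 CPM in KO against 5.39 CPM in WT (2.43 ± 0.11). Wnt10b was at 4.13 CPM in KO against 0.153 CPM in WT (4.58 ± 0.42). Notch3 was higher at 179 CPM in KO against 21.5 CPM in WT (3.05 ± 0.12) in a list where 6 were higher and 7 lower of 21. Of 20 YAP and TEAD genes 9 were higher and 8 lower, with Ankrd1 at 286 CPM in KO against 83.5 CPM in WT (1.78 ± 0.10). The coactivator Wwtr1 (TAZ) was at 225 CPM in KO against 450.1 CPM in WT.

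Translation and stress-response genes were lower together. None of 26 translation factors was called higher, by edgeR, at an unadjusted p under 0.05 (0 genes) or by DESeq2 (0 genes), and 22 were lower, with a median of -0.52. Under total-count scaling 3 were higher and 19 lower. Eif1a was at 106 CPM in KO against 323 CPM in WT (-1.61 ± 0.05). Eif3c was at 464 CPM in KO against 925 CPM in WT. The cap-binding Eif4e was at 174 CPM in KO against 296 CPM in WT (-0.76 ± 0.05). Of 27 genes of the unfolded protein and integrated stress responses 21 were lower and 2 higher, with a median of -1.01. Atf3 was at 15.5 ± 0.53 CPM in KO against 112 ± 2.7 CPM in WT (-2.86 ± 0.06). Chac1, which degrades glutathione, was at 46.0 ± 1.3 CPM in KO against 244 ± 6.0 CPM in WT (-2.40 ± 0.05). Trib3 was at 61.4 CPM in KO against 203 CPM in WT (-1.72 ± 0.06). Shmt2, a mitochondrial serine enzyme, was at 502 CPM in KO against 1254 CPM in WT (-1.32 ± 0.04). Ribosomal protein genes moved little: 12 were higher and 27 lower of 76, with a median of -0.15 that was -0.00 under total-count scaling, with 18 higher and 14 lower. Their reads may be shared with processed pseudogenes.

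Genes of respiration were mostly higher. Of 31 nuclear genes of the respiratory chain 21 were higher and 1 lower, with a median of 0.40. Ndufa1 was at 60.5 CPM in KO against 29.1 CPM in WT (1.06 ± 0.12). Ndufb8 was at 89.6 CPM in KO against 46.7 CPM in WT (0.94 ± 0.13). Uqcrc1 was at 177 CPM in KO against 110.2 CPM in WT (0.68 ± 0.07), while Ndufs3 was lower (-0.41 ± 0.10). Of 12 mitochondrially encoded subunits 11 were higher and none lower by edgeR, by an unadjusted p under 0.05 (0 genes) or by DESeq2 (0 genes), with a median of 0.80. mt-Nd1 was at 1194 ± 12 CPM in KO against 504 ± 18 CPM in WT (1.25 ± 0.06). mt-Nd5 was at 672 ± 12 CPM in KO against 267 ± 7.1 CPM in WT (1.33 ± 0.12). All mitochondrial transcripts together took 0.836% to 0.845% of counts in KO and 0.415% to 0.421% in WT, and the part of this share in the differences of other genes was not tested.

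Other metabolic groups followed. Of 25 genes of cholesterol synthesis and uptake 18 were higher and 4 lower, with a median of 0.32: the kinase and decarboxylase of mevalonate, Mvk and Mvd, were at 213 ± 3.9 CPM in KO against 44.9 ± 3.3 CPM in WT (2.25 ± 0.09) and 477 ± 4.5 CPM in KO against 138 ± 3.2 CPM in WT (1.79 ± 0.07). Acat2 was at 460.2 CPM in KO against 213 CPM in WT (1.11 ± 0.05). Scd2, a fatty acid desaturase, gained reads to 4745 ± 28 CPM in KO against 2061 ± 9.3 CPM in WT (1.20 ± 0.06). Of 32 antioxidant and iron genes 20 were higher and 9 lower, with a median of 0.55. Fth1, the heavy chain of the iron store ferritin, had 4425, 4532 and 4430 CPM in the KO libraries, against 1506, 1497 and 1470 CPM in the WT libraries, a difference of 1.58 ± 0.11 and the largest gain in reads of any gene. The transferrin receptor Tfrc, which takes iron up, was lower at 243 CPM in KO against 622 CPM in WT (-1.36 ± 0.06). Higher members included glutathione transferases, with Gsta4 at 52.4 CPM in KO against 3.82 CPM in WT (3.77 ± 0.11). Gstm2 was at 48.8 CPM in KO against 9.20 CPM in WT (2.42 ± 0.06). Gstt1 was at 86.5 CPM in KO against 19.7 CPM in WT (2.13 ± 0.07), though close copies of them exist. Of 21 glycolysis genes 10 were higher and 5 lower. The muscle phosphofructokinase Pfkm was at 149.9 CPM in KO against 25.8 CPM in WT (2.53 ± 0.06). Pyruvate kinase Pkm was at 3597 ± 34 CPM in KO against 2531 ± 60.3 CPM in WT (0.51 ± 0.05). Hexokinase 2, Hk2, was at 30.8 CPM in KO against 132 CPM in WT (-2.10 ± 0.07). The lactate exporter Slc16a3 was at 0.829 CPM in KO against 22.4 CPM in WT (-4.74 ± 0.17).

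Cell cycle genes split. Of 38 tested 17 were higher and 15 lower. Higher members included genes of mitosis, with Ccnb2 at 78.1 ± 3.6 CPM in KO against 19.9 ± 0.61 CPM in WT (1.97 ± 0.08). Cenpa was at 89.0 CPM in KO against 39.0 CPM in WT (1.19 ± 0.08). Kif23 was at 66.4 CPM in KO against 29.1 CPM in WT (1.19 ± 0.05). Plk1 was at 75.5 CPM in KO against 43.5 CPM in WT (0.80 ± 0.06). Lower members included genes of replication licensing, with Cdc6 at 89.5 CPM in KO against 164 CPM in WT (-0.87 ± 0.05). Mcm3 was at 401 CPM in KO against 658 CPM in WT (-0.71 ± 0.04). Mcm7 was at 392.3 CPM in KO against 592.8 CPM in WT (-0.60 ± 0.05). Under total-count scaling the split was 20 higher and 6 lower. Of 26 genes of cyclins D, cell cycle brakes and the p53 response 17 were higher and 7 lower: Ccnd1, cyclin D1, was at 41.1 ± 0.59 CPM in KO against 2.60 ± 0.24 CPM in WT (3.97 ± 0.13). Ccnd3 was at 137 CPM in KO against 34.6 CPM in WT (1.98 ± 0.07). The p53 target Sesn1 was at 138 CPM in KO against 44.7 CPM in WT (1.62 ± 0.06). Trp53 was at 132 CPM in KO against 273 CPM in WT (-1.05 ± 0.05). Mdm2 was at 151 CPM in KO against 282 CPM in WT (-0.90 ± 0.04) and Cdkn1c had no count in KO and 430 in WT.

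Differences of chromatin genes had a median size of 0.40 and 0.44 in the 2 lists below, against 0.58 over all genes. That size fell with level, to 0.47 for all genes from 10 to 100 CPM and 0.41 from 100 to 1000 CPM. The chromatin genes named here lie at such levels, so the lists were near other genes of their level. Of 29 genes of remodelling complexes, several of which hold actin, 9 were higher and 13 lower, with a median of -0.18. Smarca2, the BRM ATPase, was at 39.0 ± 1.8 CPM in KO against 7.41 ± 0.70 CPM in WT (2.40 ± 0.07). Ruvbl2 was at 73.2 CPM in KO against 168 CPM in WT (-1.20 ± 0.07), and Ino80 differed by -1.11 ± 0.11. Of 32 genes of Polycomb, heterochromatin and DNA methylation 10 were higher and 17 lower. The histone methyltransferase Ehmt2 was at 212 CPM in KO against 95.1 CPM in WT (1.16 ± 0.05). The demethylase Kdm6b was at 32.5 CPM in KO against 119 CPM in WT (-1.87 ± 0.18). The Polycomb subunit Suz12 was at 263 CPM in KO against 375 CPM in WT (-0.51 ± 0.05).

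**Figure D3:**
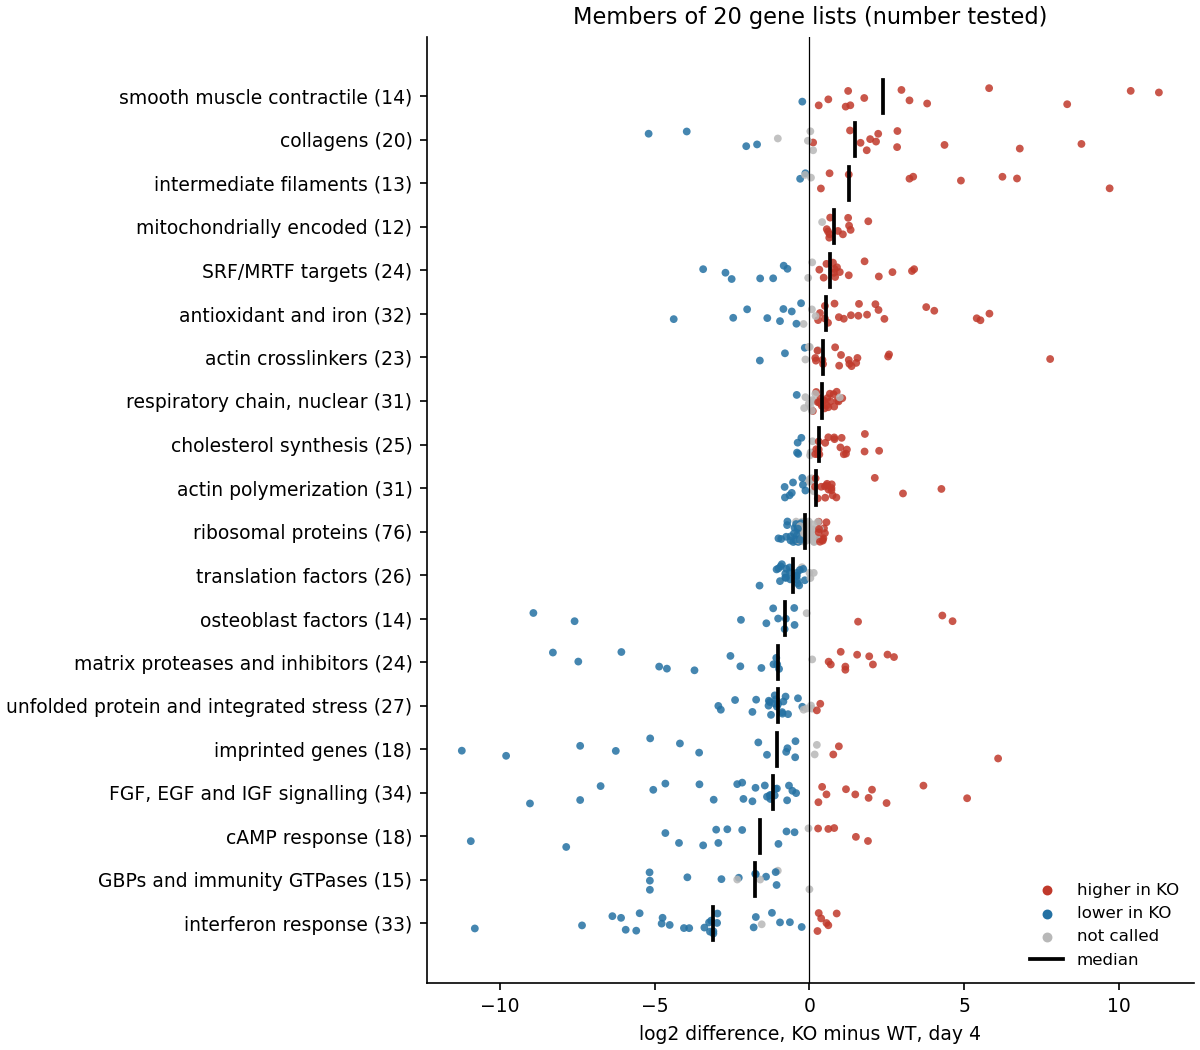
Each dot is a tested member of 1 of 20 gene lists, placed by its log2 difference, KO minus WT, at day 4, red where called higher, blue where called lower and grey where not called, with a black line at the list's median. The smooth muscle list stands at the top with a median of 2.37 and the interferon list at the bottom with -3.10, while ribosomal proteins and translation factors span a narrow range.

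Among factors that mark position in the embryo, the share called was near that of all genes, at 74.1% of patterning factors outside the Hox clusters and 65.6% of Hox genes, against 69.5%. Of 27 patterning factors 13 were lower and 7 higher. Zic1, a zinc finger factor of the dorsal neural tube and somites, had no count in any KO library, against 85.3, 86.3 and 80.2 CPM in the WT libraries, which makes it at least 2838-fold lower. Its relatives Zic2 and Zic5 were at 1.24 CPM in KO against 34.5 CPM in WT (-4.80 ± 0.19) and 3.77 CPM in KO against 49.1 CPM in WT (-3.70 ± 0.09). Lhx9, a factor of limb and gonad, was higher at 10.9 ± 0.41 CPM in KO against 0.688 ± 0.083 CPM in WT (3.98 ± 0.23). Of 32 Hox genes 15 were higher and 6 lower, or 3 lower under total-count scaling. Hoxa9 was at 28.9 CPM in KO against 10.9 CPM in WT (1.40 ± 0.09). Hoxa11 was at 0.649 CPM in KO against 5.87 CPM in WT (-3.18 ± 0.22). Imprinted genes were lower for 13 of 18 and higher for 3, with a median of -1.06: Peg3 had no count in KO and 1182 in WT, and the transporter Slc38a4 was at 3.08 ± 0.36 CPM in KO against 235 ± 5.3 CPM in WT (-6.25 ± 0.17).

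The largest increases among genes of 10 CPM or more, beside Actg2, Acta2, Myl9, Lmod1 and Krt17, included several genes of muscle and membrane. Ldb3, a protein of the muscle Z-disc, had 1319 counts in KO and none in WT, at least 462-fold higher, and Fam111a, a protease that acts at replication forks, had 5952 and none, at least 2087-fold. Dysf, dysferlin of membrane repair, had 2342 against 3 counts, a ratio of 821 (95% counting interval 281 to 3984). Tnn, tenascin N, was at 32.4 ± 1.7 CPM in KO against 0.0617 ± 0.034 CPM in WT (9.04 ± 0.62). The junction protein gene Tmem47 was at 45.2 ± 0.86 CPM in KO against 0.0390 ± 0.015 CPM in WT (10.06 ± 0.79). Tmco4 had 1296 against 1 counts, and Klra4, of the Ly49 receptor family with its near copies, 1039 against none.

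Dio2 and Rsad2, with a few counts in KO, were among the largest decreases, and beside Zic1 and Peg3 5 more genes had no count in KO. They were Auts2, a nuclear factor of neural development (WT 31.0, 30.8 and 25.7 CPM), the potassium channel Kcnk5 (WT 24.97, 27.12 and 26.17 CPM), the ubiquitin ligase Rnf144a (WT 24.0, 27.1 and 25.1 CPM), the heparan sulfate sulfotransferase Hs3st1 (WT 12.5, 12.9 and 12.6 CPM) and the ribosomal protein copy Rps4l (WT 15.6, 13.1 and 14.4 CPM). Their bounds were at least 999, 874, 852, 426 and 484-fold lower. Gpm6b, a membrane proteolipid, had 0.0302, 0.0640 and 0.220 CPM in the KO libraries, against 286, 293 and 285 CPM in the WT libraries, a difference of -11.31 ± 0.50. The teneurin Tenm3 had 1 count in KO and 3474 in WT, and the receptor kinase Flt3 was at 0.0408 ± 0.046 CPM in KO against 77.2 ± 1.4 CPM in WT (-10.76 ± 0.84). Counting a gene as present at a mean of at least 1 CPM, 21 genes had no count in WT while present in KO, and 57 had no count in KO while present in WT.

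Measured in reads rather than ratio, the 8 largest gains were in Fth1, Scd2, Acta2, Actg1, Spp1, Fn1, Pkm and Flna, and the 8 largest losses in Ptgs2, Grem1, Vcan, Pdpn, Tnc, Ncl, Mmp2 and Hmga2. Pdpn, the membrane glycoprotein podoplanin, was at 64.1 ± 2.5 CPM in KO against 1803 ± 5.9 CPM in WT (-4.81 ± 0.04). Nucleolin, Ncl, was at 1055 ± 17 CPM in KO against 2555 ± 18 CPM in WT (-1.28 ± 0.05). The chromatin protein Hmga2 was at 404 ± 1.8 CPM in KO against 1748 ± 15 CPM in WT (-2.11 ± 0.06).

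Direction depended on expression level. Of the 2755 tested genes with a mean under 1 CPM, 781 were higher and 479 lower, and of the 3186 genes from 1 to 10 CPM 1413 were higher and 782 lower, with medians of 0.32 and 0.31. From 10 to 100 CPM the sides were nearly even, 2523 higher and 2357 lower of 6383, with a median of 0.02. From 100 to 1000 CPM 720 were higher and 1526 lower of 2909, with a median of -0.20, and at 1000 CPM and over 18 were higher and 31 lower of 63, with a median of -0.18. Under total-count scaling the last 2 medians were -0.06 and -0.04 and the 2 upper bins came to 974 higher with 1190 lower and 24 with 25, while the lowest bins kept medians of 0.46 and 0.45. Grouped instead by CPM per kb of exon, which was chosen after seeing the data, the counts were 1397 higher and 853 lower under 1, 2397 and 1757 from 1 to 10, 1495 and 2371 from 10 to 100, 149 and 175 from 100 to 1000, and 5 and 1 of 12 genes at 1000 and over, where the direction turned. The share of genes called rose with level in CPM, from 45.7% under 1 CPM to 77.8% at 1000 CPM and over, as the median SE shrank from 0.54 to 0.064. Calls of at least 2-fold made up 44.2% and 44.7% of the 2 lowest bins but 19.8%, 14.3% and 27.0% of the 3 upper ones. The largest differences of each bin were Cox7b2 and Rtl6, Ldb3 and Rps4l, Actg2 and Zic1, Myl9 and Gpm6b, and Acta2 and Grem1, from the lowest bin to the highest, each pair giving the gene highest in KO and then the gene lowest in KO.

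**Figure D4:**
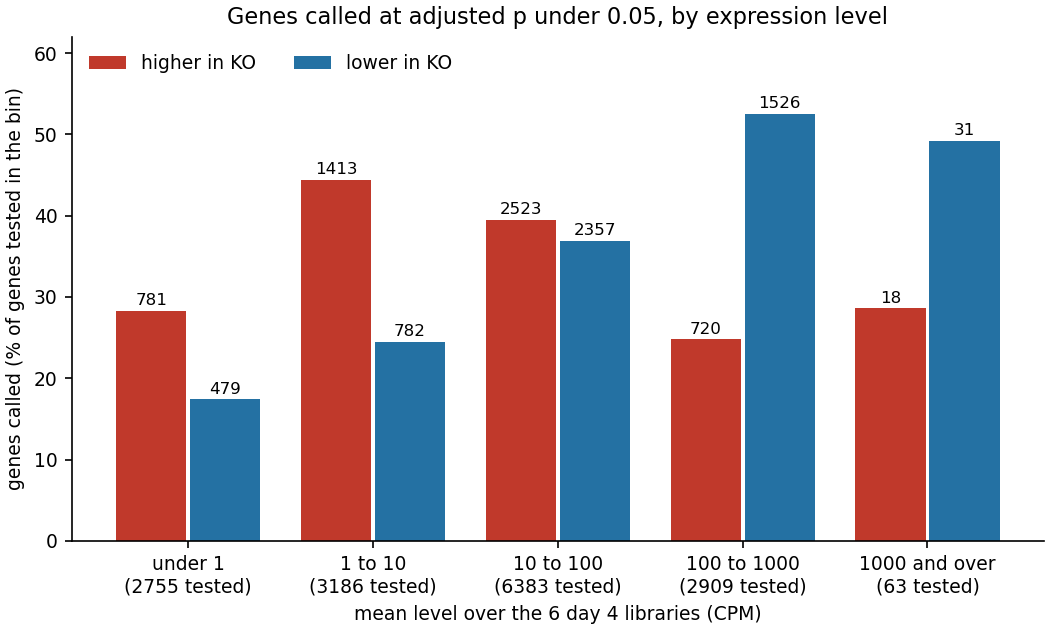
Bars give the share of the tested genes of each level, as a percentage, called higher in KO (red) and lower in KO (blue), with the number of genes above each bar and levels as the mean CPM of the 6 libraries. Higher calls outnumber lower ones under 10 CPM, 781 to 479 and 1413 to 782, and lower calls outnumber higher ones from 100 CPM up, 1526 to 720 and 31 to 18.

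Calls were not spread evenly over the nuclear chromosomes. On chromosome 8, 417 of 794 tested genes were higher and 167 lower, with a median of 0.32. Chromosomes 7, 10, 14 and 18 leaned the other way, with medians of -0.26, -0.27, -0.27 and -0.23: 20.6% of the genes of chromosome 7 were higher and 46.9% lower, and the shares were 26.8% and 47.8% on chromosome 10, 111 and 224 of 482 genes on chromosome 14, and 28.5% and 45.2% on chromosome 18. Under total-count scaling the medians of chromosomes 7, 10, 14 and 18 were -0.12, -0.12, -0.12 and -0.08, and that of chromosome 8 was 0.46. The share called in either direction varied less, from 65.7% to 74.7% over the autosomes. At day 14 the medians were -0.15 on chromosome 8, -0.13 on 7, -0.06 on 10, -0.30 on 14 and 0.43 on 18, so only chromosomes 7, 10 and 14 of these 5 kept their sign.

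**Figure D5:**
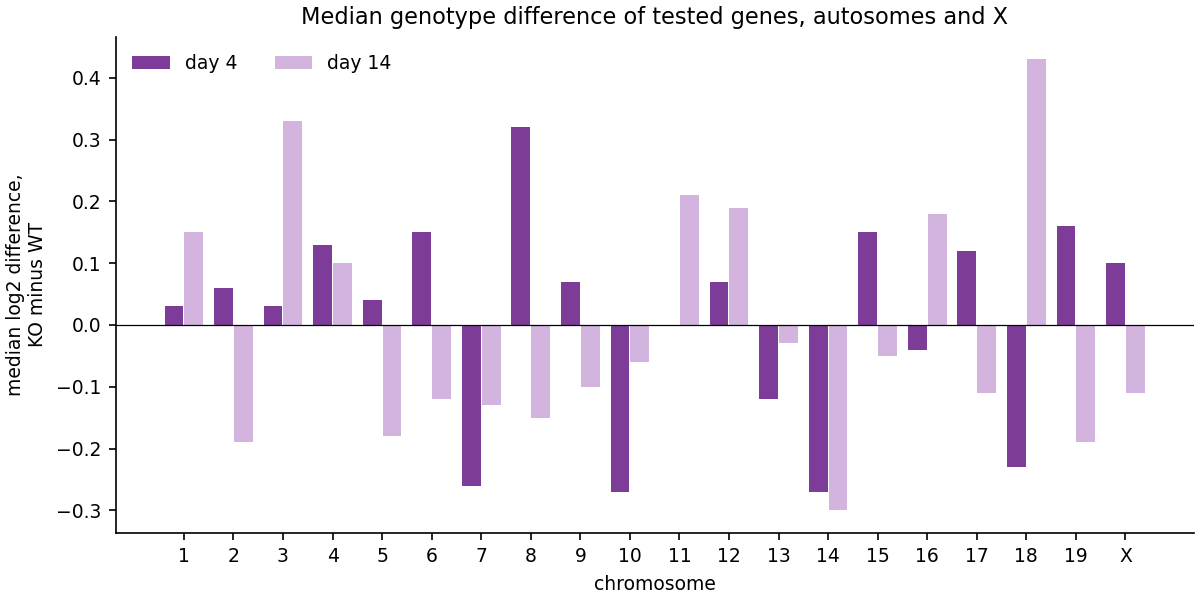
Bars give the median log2 difference, KO minus WT, of all tested genes of each autosome and of X at day 4 (dark) and day 14 (light), without error bars since genes of a chromosome are not replicates. Of these, chromosome 8 stands highest at day 4 with 0.32 and chromosome 18 highest at day 14 with 0.43, while chromosomes 7, 10 and 14 are below 0 at both days.

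Genes around Actb did not stand apart from the genome in the share called: 65.5% of the 29 tested genes within 1 Mb, 72.1% of 122 within 5 Mb and 68.8% of 237 within 10 Mb, against 69.5% of all. Among the 3 nearest tested genes on either side, Fscn1 was at 2.54 ± 0.04, Tnrc18 at 1.09 ± 0.14, Fbxl18 at 0.43 ± 0.09, D430018E03Rik at 1.43 ± 0.48 and Rnf216 at -0.40 ± 0.07, all called. Without KO replicate 1, D430018E03Rik was no longer called (1.27, adjusted p = 0.0586). Of the 6, only Rbak was not called, at -0.16 ± 0.10 (adjusted p = 0.174), and it was called with the day 4 libraries alone (-0.17, adjusted p = 0.0385).

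Genes used as stable references gave a check on scale. Gapdh was higher, at 236 ± 3.1 CPM in KO against 177 ± 11 CPM in WT (0.41 ± 0.09, adjusted p = 0.000856). Tbp was at 60.2 ± 3.3 CPM in KO against 59.5 ± 1.7 CPM in WT (0.02 ± 0.06, adjusted p = 0.834), and Hprt at 103 ± 4.0 CPM in KO against 108 ± 4.1 CPM in WT (-0.07 ± 0.10, adjusted p = 0.559). Tbp was called under total-count scaling (0.16, adjusted p = 0.049), and Hprt with the day 4 libraries alone (-0.07, adjusted p = 0.0388).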

How the data were processed

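RNA was measured by sequencing in 3 KO and 3 WT libraries of day 4, made from total RNA with a TruSeq v2 kit, per the labels' protocols. The authors deposited raw read counts per gene, 1 file per library. Per the submitters' processing notes, TopHat2 2.1.0 and the build GRCm38.p4 were used with HTSeq and DESeq2, whose versions are, like the annotation release and strand setting, not given in the sources used here. A file held 46603 Ensembl gene IDs, of which 46091 were matched to GENCODE M21 on GRCm38 for symbols, coordinates and exon length, and 512 were not. The unmatched IDs took 0.0436% to 0.0645% of counts in the day 4 libraries.

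From these counts, genes were kept by filterByExpr on the 5 groups, libraries were scaled by TMM, and 1 model over all 15 libraries was fitted with edgeR 4.0.16 (R 4.3.3), whose robust quasi-likelihood F test gave KO against WT at day 4, at day 14, and the difference between these (day 4 minus day 14). All p-values printed are adjusted by Benjamini-Hochberg over the 15296 genes tested, with a threshold of 0.05, unless named as unadjusted. SEs are Wald SEs with library variance never below counting error. The common biological coefficient of variation was 8.33%. The procedure was tested on simulated counts in which a small part of the genes was changed, as many up as down. Scaling where most genes differ was not tested that way.

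Genes are named by these routes: the actins and a chosen set of bone, fat and control genes; the 12 largest increases and decreases with at least 10 CPM in the higher group, no overlap and no predicted name; the 8 largest gains and losses in CPM; up to 4 higher and 4 lower members of each of 59 lists by smallest adjusted p, and all members of lists with at most 6 tested; the largest change each way per level; and the 3 nearest tested genes on each side of Actb. A few marker genes with hardly any count (Ptprc, Erg, Thy1, Cdh1 and the like), Isg15 and the rest of the lower SRF list members were named after their values were seen. The comparison and the lists were chosen with earlier results of these data known, and lists share members. Promoters are from RefSeq, and 17 of 22 genes of the actin and smooth muscle lists and 24 of 33 of the interferon list had one.

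Alternatives were RLE and total-count scaling, DESeq2 1.42.0, no filter beyond 1 count, 1 CPM in 3 samples, the 6 day 4 libraries alone, replicate number added as a block, and leaving out 1 library at a time. Levels per kb of exon were added after seeing the data. Same-numbered KO and WT libraries had residual correlations of 0.0149, 0.00875 and 0.0115, and differently numbered ones ran from -0.0132 to 0.00187. Values so close to 0 cannot show whether the numbers paired the libraries. Values of a few list members are not reported here.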

Additional observations from a re-analysis of the deposited data

Results flagged for a closer look

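Of 19 tested genes among the actins and the chosen bone, fat, cartilage and control genes, 15 had a genotype difference that differed between the days. The difference between day 4 and day 14 was itself tested, by edgeR's quasi-likelihood test over all 15 libraries with Benjamini-Hochberg adjustment. Gapdh, Hprt and Fos were among those not called. The value given first is the day 4 difference minus the day 14 difference, in log2 with its SE.

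Among the actins, Acta2 differed by 8.06 ± 0.23 (adjusted p = 9.71e-16), since it was 12.29 higher in KO at day 4 and 4.24 higher at day 14. Actg1 differed by 0.77 ± 0.14 (day 4 2.39, day 14 1.62, adjusted p = 0.000195). Actg2 differed by a fitted 7.11 (adjusted p = 0.004), where WT had no count at day 4 and the fitted value is no bound. Actb itself differed by 2.93 ± 0.08, at -3.14 at day 4 and -6.07 at day 14 (adjusted p = 6.58e-14), so its remaining level relative to WT was higher at day 4.

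In the matrix, Col1a1 differed by 2.89 ± 0.09 (day 4 2.84, day 14 -0.05), Col1a2 by 8.22 ± 1.26 (day 4 6.79, day 14 -1.42) and Sparc by 0.26 ± 0.07 (day 4 0.20, day 14 -0.06, adjusted p = 0.00425). Among factors, Runx2 differed by -1.11 ± 0.11, being lower in KO at day 4 (-0.49) and higher at day 14 (0.63, adjusted p = 6e-06). Alpl was lower at both days and differed by -0.71 ± 0.12. Sox9 differed by -2.32 ± 0.20 and Fabp4 by -2.65 ± 0.21, both higher at both days and more so at day 14 (4.10 and 4.93), and Pparg by 1.27 ± 0.35. Srf differed by 0.77 ± 0.07 (day 4 0.79, day 14 0.02) and its target Egr1 by -1.39 ± 0.10 (day 4 -2.51, day 14 -1.12). The control gene Tbp differed by -0.50 ± 0.09 (day 4 0.02, day 14 0.51). Such a difference was called for 64.7% of all genes tested, so it does not mark these genes out.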

How the results depend on the processing

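The counts of genes higher and lower at day 4 stayed within 1.5 times under every alternative, and no called gene was called in the opposite direction. With total-count scaling the counts were 6466 higher and 4184 lower, with DESeq2 5435 and 5338, with the 6 day 4 libraries alone 6031 and 5849, and with the replicate number as a block 5394 and 5144. With that block Airn (0.75), Selp (1.90) and Krt14 (3.31) were no longer called and the endothelial markers had 0 higher members. The labels do not say whether the shared numbers pair the samples. Leaving out 1 library gave 5106 to 5158 higher and 4880 to 5028 lower. By level, requiring 1 CPM in 3 samples left 409 higher and 264 lower genes under 1 CPM, since fewer such genes were tested. Binning by CPM per kb of exon moved genes between bins and gave 1397 higher and 853 lower under 1, 2397 and 1757 from 1 to 10, 1495 higher from 10 to 100, 149 and 175 from 100 to 1000, and 5 and 1 at 1000 and over. Lower calls thus outnumbered higher ones from 10 to 1000 per kb, but not in the 12 genes at 1000 and over. Among named genes, Tubb6 (-0.13) turned to 0.02 and Lmna (-0.13) to 0.01 under total-count scaling, neither then called, as that scaling shifted the median difference of all genes by 0.14. Beside these 2 values, 57 recomputed values of named genes across all alternatives fell short of the threshold that the reported value passed, and 8 newly passed it. Of the counts of members called per list, 48 moved by over 1.5 times. Depth limits genes under 1 CPM, whose median SE was 0.54.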

Other observations

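Groups not described above varied in the share called, which was 69.5% over all genes. It was 75.8% for axon guidance genes and 74.1% for ion channels. For the 9 histone genes tested it was 44.4%, with 4 higher and 0 lower. These genes were scarce, and the 19 of the list summed to 37.7 to 42.1 CPM in KO and 31.4 to 32.4 CPM in WT. Over all genes the share called was 45.7% under 1 CPM and 68.9% from 1 to 10 CPM. Of 33 axon guidance genes 14 were higher and 11 lower in KO. The guidance ligand Slit3 was at 0.414 ± 0.27 CPM in KO against 93.5 ± 3.2 CPM in WT (-7.83 ± 0.29). Its receptor Robo1 was at 0.0799 CPM in KO against 29.2 CPM in WT (-8.44 ± 0.65). The semaphorin Sema3f was higher at 89.0 ± 1.2 CPM in KO against 17.7 ± 0.48 CPM in WT (2.33 ± 0.06). Of 14 cadherins 5 were higher and 6 lower. Fat4 was at 45.7 CPM in KO against 2.15 CPM in WT (4.37 ± 0.31). The protocadherin Pcdh7 was at 0.127 ± 0.090 CPM in KO against 184 ± 3.1 CPM in WT (-10.43 ± 0.40). Among 27 ion channels and pores 11 were higher and 9 lower. The water channel Aqp1 was at 63.9 ± 2.7 CPM in KO against 0.387 ± 0.11 CPM in WT (7.35 ± 0.30) and Aqp5, another, at 180.2 ± 6.3 CPM in KO against 3.20 ± 0.39 CPM in WT (5.83 ± 0.15). The gap junction gene Gja1 was at 104 ± 1.9 CPM in KO against 548 ± 4.6 CPM in WT (-2.40 ± 0.08). Of 9 neural genes tested 5 were higher and 2 lower, Map2 at 42.3 ± 2.3 CPM in KO against 0.527 ± 0.16 CPM in WT (6.36 ± 0.25). Of 27 lysosomal genes 13 were higher and 8 lower. The protease gene Ctsl was at 523 ± 2.5 CPM in KO against 1700 ± 15 CPM in WT (-1.70 ± 0.08) and Ctsc at 0.752 CPM in KO against 31.2 CPM in WT (-5.38 ± 0.20).

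Classes of gene differed in direction. Protein-coding genes were even, 36.9% of 13144 higher and 37.0% lower. Of 322 lincRNAs 41.3% were higher and 14.9% lower, and of 344 antisense RNAs, whose reads cannot be told apart from those of their partners, 37.2% were higher and 9.88% lower. Other noncoding classes did not lean that way. Of 702 processed pseudogenes 12.8% were higher and 15.7% lower, and of 61 snoRNAs 3 were higher and 12 lower. Genes under 10 CPM leaned higher as a whole, and the part of level in these shares was not tested. Of the genes with no count in KO at day 4, Peg3 and Auts2, chosen after their values were seen, had fitted differences of 2.14 and 0.09 at day 14 (adjusted p = 4.99e-07 and 0.644).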
